A study of Mus musculus with 1016 samples.

Results

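The replication of the genome in 2-cell embryos was compared with that in zygotes, using single-cell Repli-seq of cells collected during S phase. The comparison took every deposited cell of either stage whose replication score, the percentage of its called 50 kb bins that were replicated, was between 10 and 90. This gave 129 of the 733 deposited cells of the series, namely 63 of 66 2-cell cells and 66 of 68 zygotes. The labels list 80 samples for each stage, and those without a column in the tables were not analysed here. The 129 cells were untreated and came from superovulated F1 females (C57BL/6J x CBA) that had mated with DBA/2J males. Zygotes were taken from the oviduct and kept in KSOM, a medium for embryo culture, until they were collected. The 2-cell cells were collected 32, 33, 35, 37, 38, 39 or 40 h and the zygotes 20 to 26 h after injection of hCG, the hormone that triggers ovulation. A zygote sample is a whole embryo with its maternal and paternal pronucleus, whereas a 2-cell sample is 1 blastomere. The labels do not tie cells to embryos, females or collections, so some 2-cell cells may be sisters, and each stage was treated as 1 sample. For that reason no test was made between the stages, and the intervals below are exact binomial (Clopper-Pearson, 95%) intervals over cells, which cover counting error only. DNA was amplified from 1 cell in each sample without molecular identifiers. Further groups of the series were read beside these stages. They were 2-cell embryos of the same cross that had been injected as zygotes with mRNA of Kdm5b, a histone demethylase, or treated from the zygote on with DRB or alpha-amanitin, inhibitors of transcription. The others were zygotes of the cross made by in vitro fertilization (IVF), parthenotes, which are activated oocytes of unmated F1 females and hold only the maternal genome, maternal (F1) and paternal (DBA/2J) pronuclei isolated from zygotes, and untreated 4-cell and 8-cell embryos, morulae and inner cell mass (ICM) of the cross.

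Replication timing (RT) is the order in which parts of the genome are copied during S phase. In differentiated mammalian cells, gene-rich, GC-rich and transcribed chromatin tends to replicate early, and gene-poor, AT-rich chromatin at the nuclear periphery tends to replicate late. The comparison spans the first cleavage, which lies between the minor wave of zygotic genome activation that begins in the zygote and the major wave in the late 2-cell embryo. The question was which regions are copied earlier or later in the second cell cycle than in the first. RT of a bin is given here as the share of cells that had replicated it. The share was taken within each of 16 overlapping intervals of replication score and then averaged. Both stages are thus read over the same intervals, but these were filled unequally, and scores were not matched within an interval. The lowest interval (scores up to 35) held 12 2-cell cells and 10 zygotes, and the highest (scores from 64.95) held 8 and 21. A bin with RT of 0.5 or more is called early, and a difference in RT (2-cell minus zygote) is positive where 2-cell embryos replicated the bin earlier.

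Replication scores ran from 20.5 to 87.6 with a median of 50.2 in 2-cell cells, and from 15.8 to 89.4 with a median of 55.9 in zygotes. The median score did not climb steadily with the hour of collection. It was 56.5 in 2-cell cells of 32 h (n = 5), 38.9 at 35 h (n = 21) and 55.3 at 40 h (n = 6), and in zygotes it was 62.2 at 20 h (n = 11), 21.4 at 22 h (n = 3) and 68.2 at 26 h (n = 8). States were called for 46523 bins in every zygote and for 46491 bins in the 2-cell cells except 4, of which the lowest had 43405. Of the 49264 deposited bins, 46470 had an RT in both stages. The titles number the cells of each stage from 1 to 80, and the cells fall into 1 run of numbers from 1 to 48 (44 2-cell cells and 45 zygotes) and another from 49 to 80 (19 and 21). What sets these runs apart is not given in the sources used here. The run from 49 to 80 held all 2-cell cells of 32 and 33 h and all zygotes of 22 h, so that number and hour cannot be fully told apart.

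Some cells stood apart from the rest. In 5 2-cell cells and 10 zygotes, the percentage of bins replicated differed between the 19 autosomes of the cell with an SD over 30 points. These cells had whole chromosomes called in 1 state. Their SD was 32.9 to 49.6 points in 2-cell cells and 32.8 to 50.7 points in zygotes. In the other cells it was at most 24.4 points in 2-cell cells and 17.3 points in zygotes, although some of these 2-cell cells also had a whole chromosome in 1 state. Among the cells over 30 points, 3 2-cell cells and 3 zygotes had no change of state within any chromosome. The 2-cell cells numbered 18 and 53, both without such a change, had scores of 84.8 and 83.8. They fell in the highest interval of score, which held 8 2-cell cells. Of the 15 cells over 30 points, 4 2-cell cells and 9 zygotes had numbers up to 48. All 15 had failed the quality control of the methods. Of all cells used here, 51 of 63 2-cell cells and 53 of 66 zygotes had passed it. The 15 cells meet the stated rule and remained in all main values. Differences without them (58 2-cell cells and 56 zygotes), a choice made after seeing the data, are given beside the results they touch.

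RT of 2-cell embryos followed that of zygotes across the genome, with modest differences in both directions. Spearman's R was 0.753 over 46470 bins and 0.817 over 1173 windows of 2 Mb, as a description in which neighbouring bins are not independent. The difference in RT had a median of -0.0088 and an SD of 0.0959 over bins, and 71.1% of bins differed by less than 0.1. The most extreme bins differed by 0.393 and -0.372. A difference of at least 0.2 was reached by 774 bins that were earlier in 2-cell embryos, 1.67% of those with a value, and by 1232 bins that were later, 2.65%. Without the cells that stood apart these counts were 1184 and 1932, and without the 2-cell cells of 35 h or the zygotes of 20 h the count of earlier bins was 1278 or 1241. On either side of RT 0.5, 12.2% of bins (5665) were late in 2-cell embryos and early in zygotes and 8.18% (3801) were early in 2-cell embryos and late in zygotes. Most of these crossings were small, with a median size of 0.126 and 0.115, and only 17.5% and 15.1% of the bins that crossed differed by 0.2 or more.

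The span of RT was narrower in 2-cell embryos on both sides. Among bins with zygotic RT under 0.3 the median RT was 0.281 in 2-cell embryos, with a median difference of 0.0523, and among bins with zygotic RT of 0.7 or more it was 0.654, with a median difference of -0.0785. Part of such a pattern arises in any comparison in which bins are picked on 1 of the values compared. The SD of RT over bins, which is free of that choice, was 0.141 in 2-cell embryos and 0.152 in zygotes. This order held among cells numbered 49 to 80 (0.142 and 0.165) and without the cells that stood apart (0.148 and 0.167) but was turned among cells numbered 1 to 48 (0.165 and 0.162). The mean variability score of a bin, which is 1 where 50% of cells have replicated it and 0 where all cells share 1 state, was 0.773 in 2-cell embryos and 0.748 in zygotes overall. It was 0.732 and 0.731 among cells numbered 1 to 48.

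**Figure D1:**
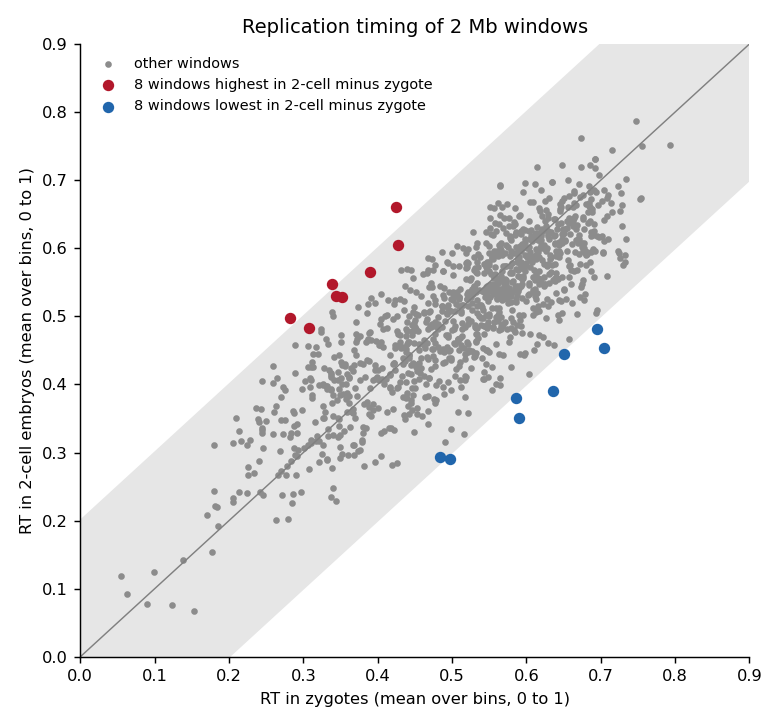
Mean RT over bins of the 1173 windows of 2 Mb in 2-cell embryos (vertical axis) against zygotes (horizontal axis), each point 1 window, with the 8 windows highest and the 8 lowest in the difference in colour, the diagonal of equal RT drawn and differences under 0.2 shaded. Points lie along the diagonal (Spearman's R 0.817), with 523 windows above it and 650 below.

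The differences between the stages within a run had SDs on either side of those between the number runs of a stage, in sets of unlike cell numbers. The stage difference over bins had an SD of 0.107 among cells numbered 1 to 48 (44 2-cell cells and 45 zygotes). It was 0.159 among those numbered 49 to 80 (19 and 21). The difference between the runs had an SD of 0.141 within 2-cell embryos (19 and 44 cells) and 0.121 within zygotes (21 and 45). Such an SD also rises as cells become fewer, so these values do not measure stage against run. Over bins, the stage differences of the runs correlated only weakly (R = 0.148), and over windows at 0.176. Bins with differences of at least 0.2 in either run had the same sign in the other more often than all bins did. Of 1122 bins at least 0.2 earlier in 2-cell embryos among cells numbered 1 to 48, 66.9% were also earlier among cells numbered 49 to 80, against 48.7% of all bins, and 23.2% by at least 0.2, against 9.41%. Of 1955 bins at least 0.2 later in 2-cell embryos, 68.8% were also later in the other run, against 51.3% of all bins, and 25.0% by at least 0.2, against 11.4%. Read the other way, from numbers 49 to 80 to numbers 1 to 48, the gain was smaller. Of 4371 earlier bins 56.7% were also earlier, against 46.6% of all bins, with a median difference of 0.0174, and of 5296 later bins 63.6% were also later, against 53.4%, with a median of -0.0382. Among windows, 26 were earlier and 45 later in 2-cell embryos by at least 0.1 in both runs, while 16 were earlier in numbers 1 to 48 and later in numbers 49 to 80, and 12 the reverse. The regions below are therefore given with the value in each run, that of numbers 1 to 48 before that of numbers 49 to 80.

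AT-rich, gene-poor windows were the group that moved towards earlier RT at the 2-cell stage. When windows were split into quintiles by GC content, the 235 windows of lowest GC (35.97 to 38.78%, with a median of 2 protein-coding genes) stood at RT 0.427 (median) in 2-cell embryos, against 0.370 in zygotes, and 191 of 235 were earlier in 2-cell embryos. Their median difference was 0.0553, and it was 0.0344 and 0.0726 in the runs of numbers 1 to 48 and 49 to 80 and 0.0673 without the cells that stood apart. The other quintiles went slightly the other way, with median differences of -0.0195, -0.0290, -0.0288 and -0.0190 from lower to higher GC, and with 94 of 234, 75 of 235, 77 of 234 and 86 of 235 windows earlier in 2-cell embryos. Over windows, GC content and the difference had a Spearman's R of -0.334 (-0.166 and -0.284 in the runs), and gene number and the difference -0.186. Zygotic RT itself rose with GC content (R = 0.458 in zygotes, 0.320 in 2-cell embryos), so that late zygotic RT and low GC content cannot be told apart here.

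In single cells the same windows lagged less behind the rest of the genome in 2-cell cells than in natural zygotes. Such a level cannot fall below minus the score of the cell. Zygotes had higher scores (median 55.9, against 50.2 in 2-cell cells), and cells were not matched by score here. The percentage of bins of these windows replicated, minus the replication score of the cell, was read in each cell. Its lowest, median and highest values were -38.1, -5.89 and 17.5 points over 2-cell cells and -49.7, -10.2 and 16.7 points over zygotes. The windows were ahead of the cell's own score in 19 of 63 2-cell cells and in 11 of 66 zygotes, and the distributions overlapped over most of their range. Without the cells that stood apart the medians were -6.06 points in 2-cell cells and -13.1 points in zygotes. The lag was smaller in other cells of the first cycle, with a median level of 2.19 points in IVF zygotes and -1.45 points in parthenotes. Median RT of these windows was 0.475 in IVF zygotes and 0.478 in parthenotes, both above the 0.370 of natural zygotes. It was 0.428 in 2-cell embryos with KDM5B and 0.389 in those with DRB. Natural zygotes were thus the lowest of these 6 groups. IVF zygotes and parthenotes were both above control, KDM5B and DRB 2-cell embryos. With either of them in place of natural zygotes, the order of the stages was the other way round.

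**Figure D2:**
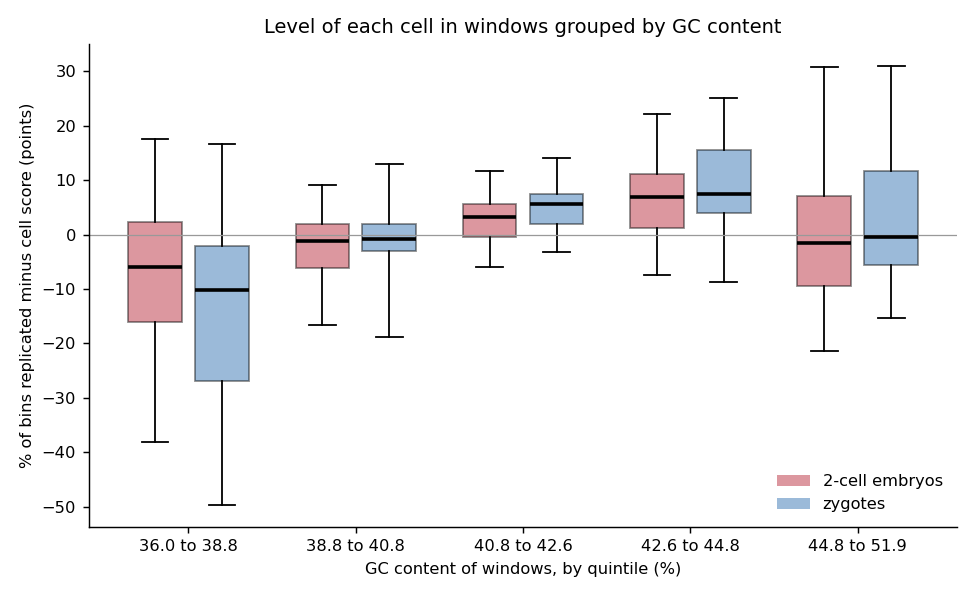
Percentage of bins replicated in the windows of each GC quintile, minus the replication score of the cell, in points (vertical axis), over 2-cell cells and zygotes, by quintile from low to high GC (horizontal axis), with boxes at the quartiles, lines at the medians and whiskers to the lowest and highest cell. In the quintile of lowest GC the median is -5.89 points in 2-cell cells and -10.2 points in zygotes.

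Of 1173 windows, 3 were at least 0.2 earlier in 2-cell embryos (0.256%) and 7 were at least 0.2 later (0.597%). Without single hours the count of earlier windows was between 1 (zygotes of 24 h left out) and 7 (2-cell cells of 35 h left out). The 8 windows at either end were examined in detail. They were picked on the difference over all cells, so their size and sign are a description, and agreement in sign across subsets of the same cells is in part fixed by that choice.

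The 8 windows that moved most towards earlier RT lay on chromosomes 5, 12, 15 and 16 and were AT-rich (GC content 36.3 to 38.8%, against a median of 41.7% over all windows), with 0 to 7 genes (median of all windows 12). The window with the largest difference, chr16:74000001-76000000, holds part of Robo2, a receptor for Slit proteins that guides axons, together with Samsn1, an adaptor protein of lymphocytes, and Lipi, a lipase. Its RT was 0.660 in 2-cell embryos and 0.425 in zygotes, a difference of 0.235 (0.204 and 0.261 in the runs, 0.262 without the cells that stood apart). More than 50% of the window was replicated, which is what is meant below by a replicated window, in 45 of 63 2-cell cells (71.4%, interval 58.7 to 82.1%) and in 27 of 66 zygotes (40.9%, 28.95 to 53.7%). The gap was there at every stage of S phase: for scores under 40 it was replicated in 9 of 20 2-cell cells and 2 of 17 zygotes, for scores of 40 to 60 in 23 of 29 and 9 of 23, and above 60 in 13 of 14 and 16 of 26. Relative to the score of the cell, the window ran from -62.4 to 65.7 points in 2-cell cells with a median of 22.3, and from -80.2 to 61.1 points in zygotes with a median of -14.2, so single cells of the stages overlapped widely.

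The next windows were also AT-rich and poor in genes, but not all showed the gap at every score. For scores of 40 to 60, chr5:56000001-58000000 and chr12:92000001-94000000 were each replicated in 11 of 29 2-cell cells and 8 of 23 zygotes. The counts for chr16:66000001-68000000 were 14 of 29 and 8 of 23. chr5:56000001-58000000 holds Pcdh7, a protocadherin of cell adhesion, and replicated at RT 0.498 in 2-cell embryos, against 0.281 in zygotes (difference 0.216, and 0.183 and 0.270 in the runs). It was replicated in 26 of 63 2-cell cells (41.3%, 29.01 to 54.4%) and 20 of 66 zygotes (30.3%, 19.6 to 42.9%), a raw share that does not correct for the higher scores of zygotes and whose intervals overlap. chr16:66000001-68000000, with Cadm2, a cell adhesion molecule of synapses, had RT 0.547 in 2-cell embryos and 0.339 in zygotes, a difference of 0.208 (0.174 and 0.220 in the runs). It was replicated in 33 of 63 2-cell cells (52.4%, 39.4 to 65.1%) and in 20 of 66 zygotes (30.3%, 19.6 to 42.9%). chr12:92000001-94000000 holds no protein-coding gene and had RT 0.530 in 2-cell embryos and 0.344 in zygotes, a difference of 0.186 (0.158 and 0.216).

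The remaining 4 of these windows differed by 0.175 to 0.178. On chromosome 15 they were chr15:50000001-52000000, with Trps1, a transcriptional repressor of the GATA type, Eif3h, a subunit of a translation initiation factor, and the cohesin subunit Rad21, and chr15:44000001-46000000, with Pkhd1l1, Sybu and Nudcd1. The Trps1 window rested on 1 run of cells, with a difference of 0.243 among numbers 1 to 48 and 0.0382 among numbers 49 to 80. chr12:66000001-68000000, with Mdga2, a surface protein that binds neuroligins at synapses, and the ribosomal protein gene Rpl10l, showed the reverse, with 0.0803 and 0.360, and its difference was 0.104 without the zygotes of 24 h. In chr5:62000001-64000000, with Arap2, a GTPase-activating protein of the actin skeleton, the runs gave 0.125 and 0.264.

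The 8 windows that moved most towards later RT had a GC content of 41.04 to 46.94% (median 43.8%, against 41.7% over all windows) and 5 to 23 genes (median 12.5, against 12) and lay on chromosomes 1, 2, 4 and 6. The largest difference was in chr1:186000001-188000000, with Esrrg, an orphan nuclear receptor of energy metabolism, Spata17 and Gpatch2. RT was 0.454 in 2-cell embryos and 0.705 in zygotes, a difference of -0.251 (-0.197 and -0.377 in the runs, -0.320 without the cells that stood apart). The window was replicated in 27 of 63 2-cell cells (42.9%, 30.5 to 55.95%) and in 52 of 66 zygotes (78.8%, 66.98 to 87.9%). By score the counts were 5 of 20 2-cell cells and 11 of 17 zygotes under 40, 14 of 29 and 18 of 23 from 40 to 60, and 8 of 14 and 23 of 26 above 60. Zygotes had thus mostly copied it before S phase was far along, whereas in 2-cell cells above a score of 60 it was still unreplicated in 6 of 14. Relative to the score of the cell it ran from -87.6 to 61.3 points in 2-cell cells with a median of -10.9, and from -73.3 to 79.8 points in zygotes with a median of 23.6.

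Adjoining windows of distal chromosome 2 moved together. chr2:160000001-162000000 and chr2:162000001-164000000 share Ptprt, a receptor tyrosine phosphatase of neurons, and hold Chd6, a chromatin remodeller, and Zhx3 in the first and Tox2 and Pkig in the second. The first stood at RT 0.482 in 2-cell embryos, against 0.696 in zygotes (difference -0.214), and the second at 0.445 against 0.650 (difference -0.205). The first was replicated in 29 of 63 2-cell cells (46.03%, 33.4 to 59.1%) and in 51 of 66 zygotes (77.3%, 65.3 to 86.7%). A further window on the same arm, chr2:178000001-180000000, with Cdh4, or R-cadherin, Phactr3 and Taf4, a subunit of the general transcription factor TFIID, had RT 0.351 in 2-cell embryos and 0.590 in zygotes (difference -0.239, and -0.291 and -0.112 in the runs).

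On chromosome 6, chr6:146000001-148000000, with the calcium channel gene Itpr2, Ccdc91 and Ppfibp1, had RT 0.390 in 2-cell embryos and 0.636 in zygotes (difference -0.246, and -0.172 and -0.394 in the runs). It was replicated in 22 of 63 2-cell cells (34.9%, 23.3 to 47.97%) and in 46 of 66 zygotes (69.7%, 57.2 to 80.4%). chr6:136000001-138000000, with the receptor phosphatase gene Ptpro, Eps8, a regulator of actin, and Grin2b, a subunit of the NMDA glutamate receptor, differed by -0.206, of which most came from numbers 49 to 80 (-0.0879 and -0.509 in the runs). chr4:142000001-144000000, with Kazn, Prdm2 and Tmem51, differed by -0.207 (-0.203 and -0.262). chr1:194000001-196000000, with Plxna2, a semaphorin receptor, and the complement regulators Cd46 and Cr2, was late in both stages, with RT 0.293 in 2-cell embryos and 0.484 in zygotes.

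**Figure D3:**
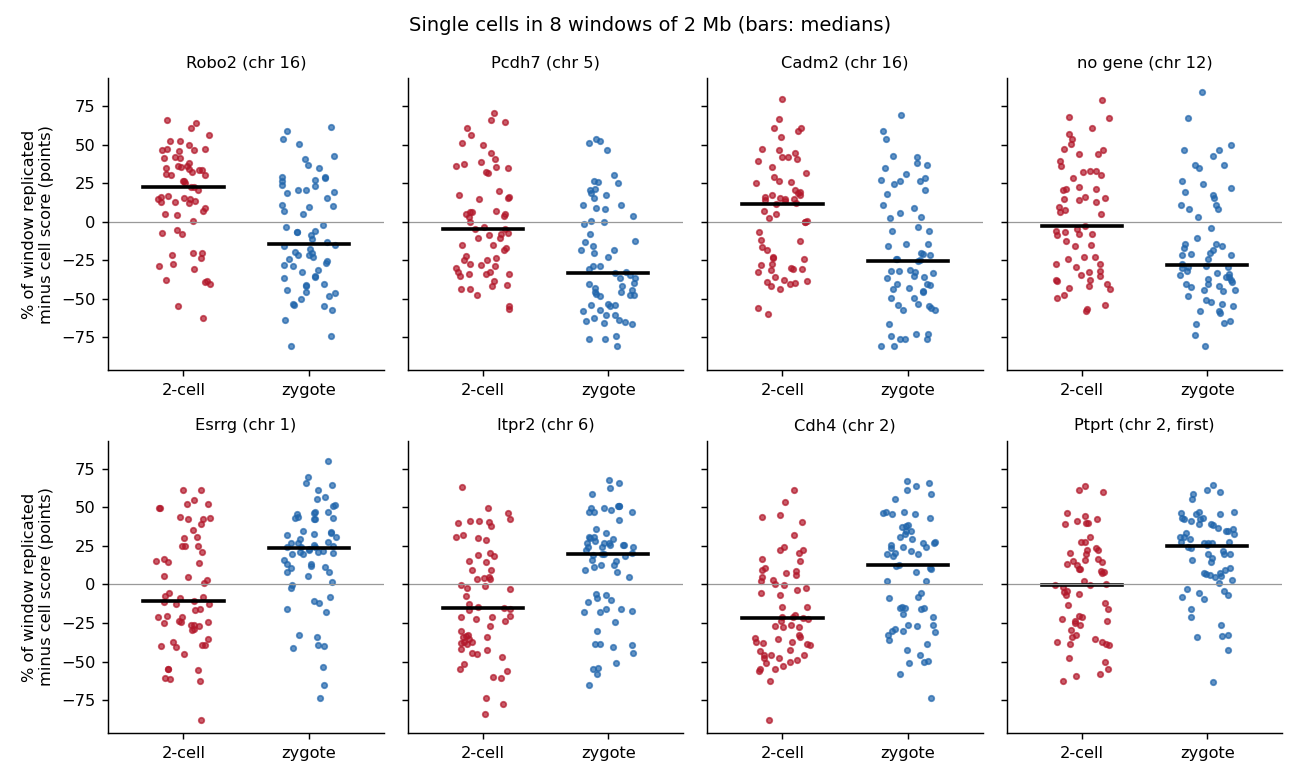
Percentage of each window replicated, minus the replication score of the cell, in points (vertical axis), for every 2-cell cell and zygote in the 4 windows highest and the 4 lowest in the difference, with bars at the medians. In the Robo2 window the median is 22.3 points in 2-cell cells and -14.2 points in zygotes, in the Esrrg window it is -10.9 and 23.6 points, and the cells of the stages overlap in every window.

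At 50 kb resolution the bins that differed by 0.2 or more lay in 177 stretches of adjoining bins that were earlier and 279 that were later in 2-cell embryos, most of them short (median 0.1 Mb in either direction). Only 20 and 32 stretches were 0.5 Mb or longer. The longest, named here after their values were seen, lay mostly within the windows above: 2.4 Mb around Esrrg (RT 0.451 in 2-cell embryos and 0.697 in zygotes), 1.95 Mb over Ptprt (0.375 and 0.671), 1.65 Mb over Itpr2 (0.397 and 0.656) and 1.4 Mb in and beside Robo2 (0.689 and 0.409). Outside those windows, 1.3 Mb in Lsamp, a cell adhesion gene of limbic neurons (chr16:39600001-40900000), was earlier in 2-cell embryos, with RT 0.663 against 0.420 in zygotes, and 1.1 Mb holding Kcnma1, a potassium channel gene, Dlg5 and Polr3a (chr14:23500001-24600000) was later, with RT 0.398 against 0.676.

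Cells that took no part in the choice of bins gave an independent reading. For the 1232 bins later in 2-cell embryos, median RT was 0.405 there and 0.643 in zygotes. In other 2-cell groups their median RT was also low, at 0.473 with KDM5B (56 cells), 0.470 with DRB (67 cells) and 0.481 with alpha-amanitin (42 cells), and it was higher in IVF zygotes (0.584, 57 cells), parthenotes (0.551, 57 cells) and isolated maternal (0.542, 21) and paternal (0.557, 17) pronuclei. Set against IVF zygotes, 2-cell embryos with KDM5B were earlier in only 14.5% of these bins, with a median difference of -0.102, whereas over all bins they were earlier in 40.9%, with a median of -0.0244. Set against parthenotes, 2-cell embryos with DRB were earlier in 29.1% of them, against 52.5% of all bins. The direction of the later bins was therefore found again in separate cells, at a smaller size.

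The bins that were earlier in 2-cell embryos did not separate the other groups in the same way. The median RT of the 774 bins, 0.582 in 2-cell embryos and 0.338 in zygotes, was 0.486 with KDM5B, 0.505 with DRB and 0.575 with alpha-amanitin, against 0.488 in IVF zygotes, 0.476 in parthenotes and 0.484 and 0.387 in maternal and paternal pronuclei. 2-cell embryos with KDM5B were earlier than IVF zygotes in 45.9% of these bins (40.9% of all bins), and those with DRB earlier than parthenotes in 54.3% (52.5%). Natural zygotes, whose low values entered the choice of these bins, were the lowest of all these groups. The treated embryos differ from control 2-cell embryos by their treatment as well as by being other cells, and the files of each group were scaled separately.

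The 16 windows showed the same asymmetry. In the 8 later windows the median RT was 0.404 with KDM5B, 0.395 with DRB and 0.388 with alpha-amanitin, against 0.468 in IVF zygotes, 0.477 in parthenotes and 0.489 and 0.545 in maternal and paternal pronuclei. Over all windows the medians of these groups were 0.519, 0.535 and 0.516, against 0.546, 0.522, 0.529 and 0.526. The later windows thus lay above the median of all windows in natural zygotes (0.613 against 0.533) and paternal pronuclei. They lay below it in IVF zygotes, parthenotes and maternal pronuclei, and further below it in the treated 2-cell groups. In the 8 earlier windows it was 0.494, 0.476 and 0.571 in the treated 2-cell groups, against 0.470, 0.504, 0.485 and 0.419. In 4 of the 8 later windows each of the 3 treated 2-cell groups was later than each of the 4 groups of the first cycle, and in 0 of the 8 earlier windows was each of them earlier. The Esrrg window was among the 4, with RT 0.494, 0.378 and 0.555 in the treated 2-cell groups and 0.687, 0.627, 0.723 and 0.612 in IVF zygotes, parthenotes and the maternal and paternal pronuclei, as were the Itpr2, Kazn and Plxna2 windows. Over all 1173 windows, each treated 2-cell group was later than each group of the first cycle in 72 windows and earlier in 34. In the Robo2 window RT was 0.569, 0.519 and 0.676 in the treated 2-cell groups and 0.468, 0.539, 0.521 and 0.387 in the groups of the first cycle.

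The windows that moved earlier were late again in the stages that followed. The 8 earlier windows stood at a median RT of 0.348 in zygotes and 0.539 at the 2-cell stage, then at 0.392 in 4-cell and 0.311 in 8-cell embryos, at 0.152 in morulae and at 0.411 in the ICM. For the 8 later windows the median was 0.613 in zygotes and 0.385 at the 2-cell stage, then 0.388 in 4-cell and 0.480 in 8-cell embryos, 0.561 in morulae and 0.543 in the ICM. In both sets the 2-cell value lay farther than the zygotic value from those of the morula and the ICM. The choice of windows on their difference fixes this pattern in part. Against 4-cell embryos it held for the earlier windows only, since the later windows stood at 0.385 in 2-cell and 0.388 in 4-cell embryos. Over 1170 windows, the difference between 2-cell embryos and zygotes had a Spearman's R of -0.308 with RT in morulae (-0.114 and -0.321 in the runs). With RT in 4-cell embryos it was -0.1545 over 1172 windows, and the runs were opposite (0.0295 and -0.260). Both are descriptions over windows that share depth and base composition.

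**Figure D4:**
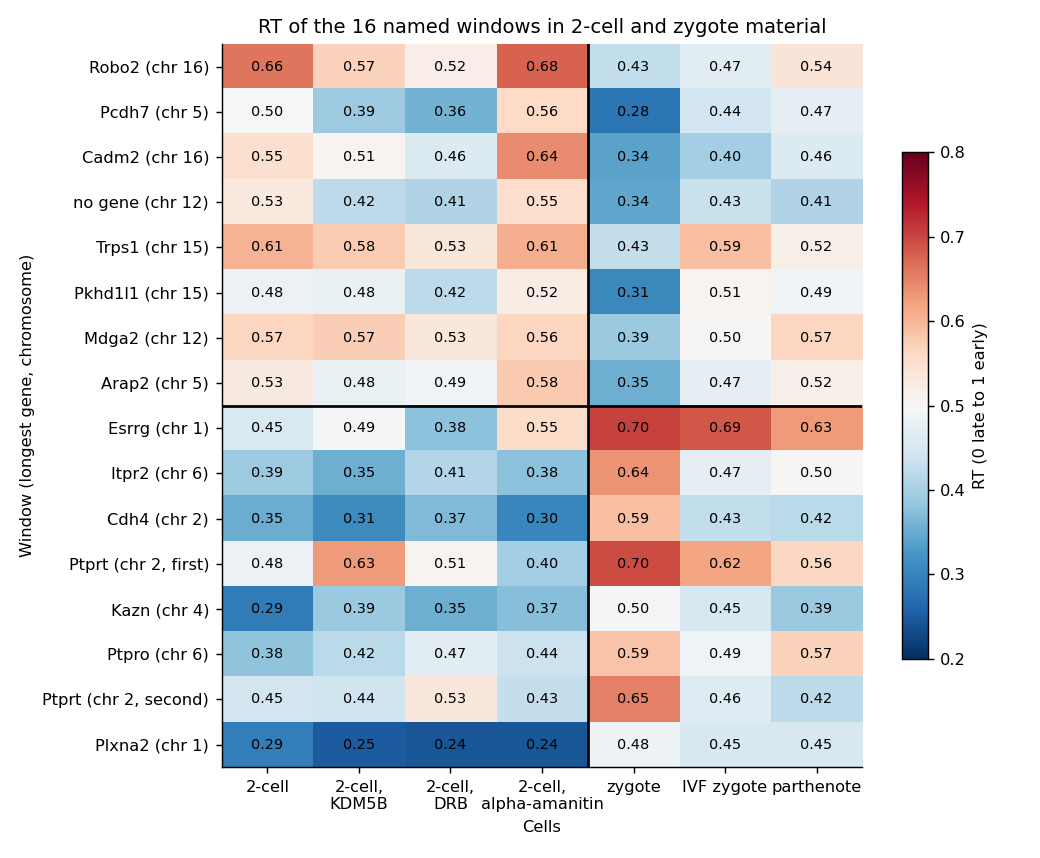
RT (colour) of the 8 windows highest and the 8 lowest in the difference (rows) in 2-cell embryos, 2-cell embryos with KDM5B, DRB or alpha-amanitin, and natural zygotes, IVF zygotes and parthenotes (columns). In the lower rows the medians are 0.404, 0.395 and 0.388 in the treated 2-cell groups and 0.468 and 0.477 in IVF zygotes and parthenotes, and in the upper rows they are 0.494, 0.476 and 0.571 against 0.470 and 0.504.

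Chromosomes as a whole differed little, and by less than the spread over cells. The mean difference was positive on 7 and negative on 12 of 19 autosomes. It was highest on chromosome 15 (0.0311, RT 0.496 in 2-cell embryos and 0.464 in zygotes), chromosome 17 (0.0297, 0.404 and 0.375) and chromosome 16 (0.0220, 0.522 and 0.5003). It was lowest on chromosome 2 (-0.0495, 0.535 and 0.585), chromosome 8 (-0.0405, 0.4997 and 0.540) and chromosome 18 (-0.0382, 0.547 and 0.585). Chromosome 15 lost its place without the cells that stood apart, at -0.0127, and was at -0.0012 among numbers 49 to 80. Chromosomes 2, 8 and 18 were negative in both runs and without those cells (-0.0168, -0.0210 and -0.0305), and chromosomes 16 and 17 positive (0.0120 and 0.0076). With hours left out in turn, chromosome 15 ran from 0.0094 (without zygotes of 20 h) to 0.0451, chromosome 16 from 0.0085 and chromosome 17 from 0.0089 (both without zygotes of 21 h) to 0.0380 and 0.0471, chromosome 8 from -0.0553 to -0.0199 (without 2-cell cells of 35 h), chromosome 18 from -0.0629 (without 2-cell cells of 35 h) to -0.0276 and chromosome 2 from -0.0615 to -0.0377. Relative to the score of the cell, chromosome 2 lay at a mean of 3.32 ± 11.7 points in 2-cell cells (SD, n = 63) and 7.78 ± 16.1 points in zygotes (SD, n = 66), a gap well inside either SD. Chromosome 17 was the latest of the 19 in both stages, at -9.38 ± 18.9 and -13.3 ± 16.5 points.

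**Figure D5:**
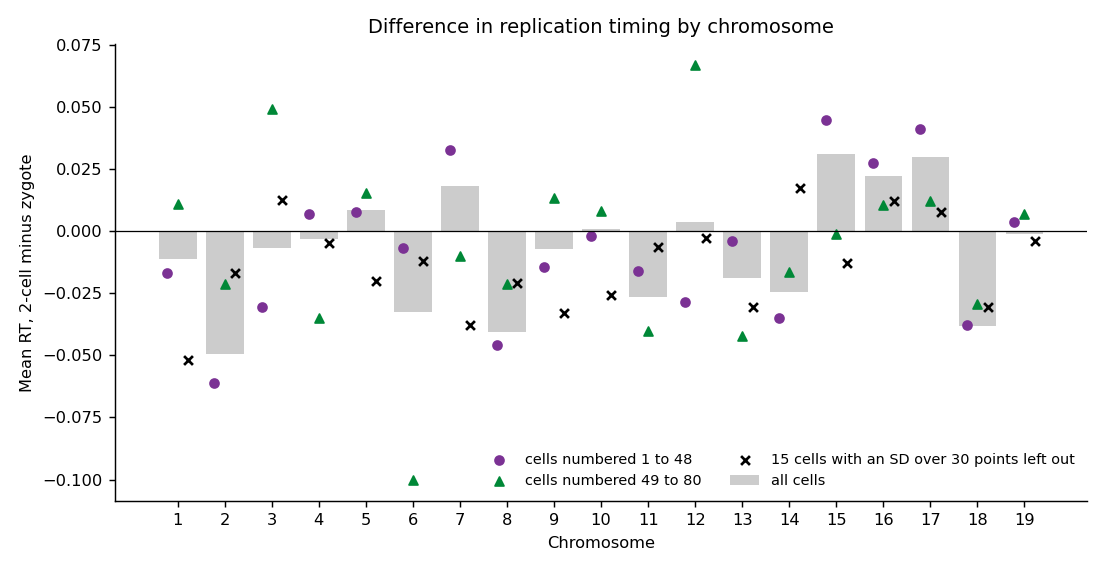
Mean difference in RT (2-cell minus zygote, vertical axis) of each autosome over all cells, within cells numbered 1 to 48 and 49 to 80, and without the cells that stood apart. Chromosomes 2, 8 and 18 lie below 0 in all 4 readings, and chromosome 15 lies above 0 over all cells (0.0311) and below without the cells that stood apart (-0.0127).

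Both ends of chromosomes were later in 2-cell embryos. Mouse autosomes have their centromere at the start of the coordinates, and in the first 2 Mb of mapped bins from that end mean RT was 0.435 in 2-cell embryos and 0.503 in zygotes. The difference of -0.0678 (-0.0778 and -0.0382 in the runs, -0.0745 without the cells that stood apart) was positive on 3 of 19 chromosomes. It shrank with distance, to -0.0531 at 2 to 5 Mb, -0.0344 at 5 to 10 Mb and -0.0252 at 10 to 20 Mb. At the telomeric end the last 2 Mb had mean RT 0.409 in 2-cell embryos and 0.462 in zygotes, a difference of -0.0531 (-0.0539 and -0.0606, and -0.0616 without those cells) that was positive on 4 of 19 chromosomes, and it was 0.0027 at 20 to 40 Mb.

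Genes were read through the bins they overlap, for 19983 protein-coding genes with a value in both stages. Of these, 79 (0.395%) were at least 0.2 earlier in 2-cell embryos and 288 (1.44%) at least 0.2 later. The median difference over protein-coding genes was -0.0093, and 45.3% of them were earlier in 2-cell embryos. Counts of earlier and later members below are to be read beside that share. Members of a gene cluster share bins, so counts within a clustered family are not independent. The lists below, of 35 in all, were read as counts and medians beside these values. Medians near 0 have no settled sign, since 23 of the 35 kept theirs among numbers 1 to 48, 22 among numbers 49 to 80 and 31 without the cells that stood apart.

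Long neuronal genes, which exceed many other genes in length and often lie in AT-rich DNA, went both ways. Of 49 with a value, 26 were earlier and 23 later in 2-cell embryos, 1 and 3 of them by at least 0.2, with a median difference of 0.0099. Ptprt had RT 0.330 in 2-cell embryos and 0.631 in zygotes, was replicated in 20 of 63 2-cell cells (31.7%, 20.6 to 44.7%) and 45 of 66 zygotes (68.2%, 55.6 to 79.1%), and differed by -0.301 (-0.269 and -0.420 in the runs). Auts2, a regulator of transcription and of the cytoskeleton in neurons, and Cdh13, or T-cadherin, differed by -0.221 and -0.218, the RT of Auts2 being 0.503 in 2-cell embryos, against 0.724 in zygotes, and that of Cdh13 0.419 against 0.637. Robo2 had RT 0.653 in 2-cell embryos and 0.447 in zygotes (difference 0.206, and 0.168 and 0.274 in the runs). Erbb4, a neuregulin receptor, had RT 0.440 in 2-cell embryos and 0.262 in zygotes, a difference of 0.178.

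Genes of the first cell fates showed no common direction. Of 21 pluripotency genes 14 were earlier in 2-cell embryos, none by 0.2, with a median difference of 0.0178 (0.0332 and -0.0025 in the runs, and -0.0232 without the 2-cell cells of 35 h). The neighbours Nanog, a transcription factor of the epiblast, Gdf3, a TGF-beta ligand, and Dppa3, which protects the maternal genome from demethylation, differed by 0.120, 0.172 and 0.172, of which Gdf3 and Dppa3 share 1 bin. Nanog had RT 0.629 in 2-cell embryos and 0.510 in zygotes, but the runs were opposite, at 0.279 and -0.160. They were opposite for Gdf3 and Dppa3 too, at 0.351 and -0.160. Pou5f1 and Sox2, the core partners of Nanog, differed by -0.0587 and 0.0083. Of 20 trophectoderm genes 14 were later, with a median difference of -0.0667 (-0.0039 and -0.103 in the runs). Eomes, a T-box factor of the trophoblast, had RT 0.392 in 2-cell embryos and 0.607 in zygotes and was replicated in 26 of 63 2-cell cells (41.3%, 29.01 to 54.4%) and in 42 of 66 zygotes (63.6%, 50.9 to 75.1%). Cdx2, which is needed for the trophectoderm, differed by -0.109, with -0.210 and 0.157 in the runs. Of 20 primitive endoderm genes 10 were earlier and 10 later, from Pdgfra (0.152) to Hnf4a (-0.171).

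Genes transcribed around the time of the comparison moved little where they had a value. Of 23 genes of 2-cell genome activation with a value, 16 were earlier in 2-cell embryos, with a median difference of 0.0066 and none at 0.2. Of the 41 genes listed, 40 were matched in the annotation, and those without a value could not be read. Dux, which drives many of these genes, was not matched by name. Dppa4 and Dppa2, neighbours that act upstream of it, shared RT 0.418 in 2-cell embryos, against 0.295 and 0.319 in zygotes, and differed by 0.123 and 0.0988 with the same sign in both runs. Of 44 oocyte and maternal effect genes 27 were later (median -0.0097), and 1 of them by at least 0.2. That gene is Wee2, the kinase that holds oocytes in meiotic arrest, with RT 0.373 in 2-cell embryos and 0.645 in zygotes and differences of -0.286 and -0.279 in the runs. It was replicated in 23 of 63 2-cell cells (36.5%, 24.7 to 49.6%) and in 45 of 66 zygotes (68.2%, 55.6 to 79.1%). Of 29 housekeeping genes 16 were earlier (median 0.0038), from Eef1a1, a translation elongation factor (0.166), to Emc7 (-0.213), and Gapdh, a glycolytic enzyme, differed by -0.187 with the same sign in both runs.

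Genes that copy and mark DNA were near the median of all genes. Of 49 DNA replication genes 31 were later (median -0.0211), 1 of them by at least 0.2, the helicase subunit Mcm4, with RT 0.334 in 2-cell embryos and 0.540 in zygotes. Orc1, of the origin recognition complex, was the highest at 0.113. Of 20 DNA methylation genes 12 were earlier (median 0.0196), a sign that depended on the cells, with -0.0180 and 0.103 in the runs, -0.0042 without the cells that stood apart and -0.0198 without the 2-cell cells of 35 h. Dnmt1, the maintenance methyltransferase, had RT 0.746 in 2-cell embryos and 0.549 in zygotes (difference 0.197, and 0.121 and 0.395 in the runs), whereas Hells, a remodeller needed for methylation, differed by -0.188. Of 35 histone methylation enzymes none differed by 0.2. Their extremes were Kdm4a, an H3K9 and H3K36 demethylase (0.141), and Suv39h2, an H3K9 methyltransferase (-0.192).

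Imprinted genes that are expressed from the maternal allele were mostly later in 2-cell embryos. Of 32 with a value, 26 were later and 2 by at least 0.2, with a median difference of -0.0836 (-0.0602 and -0.166 in the runs, -0.107 without the cells that stood apart), against -0.0093 over protein-coding genes. Several of them are neighbours on distal chromosome 7. Kcnq1, a potassium channel, had RT 0.419 in 2-cell embryos and 0.589 in zygotes, Cdkn1c, an inhibitor of the cell cycle, 0.364 and 0.539, and Kcnq1ot1, the RNA expressed from the paternal allele in the same domain, 0.442 and 0.642. The lower value was not particular to 2-cell embryos in that domain, since RT of Kcnq1 was 0.298 in IVF zygotes and 0.430 in parthenotes. On proximal chromosome 7, Zim1 had RT 0.344 in 2-cell embryos and 0.568 in zygotes, and its paternally expressed neighbour Peg3, a zinc finger protein, 0.302 and 0.497. There, RT was 0.625 and 0.552 in IVF zygotes but also 0.646 for both genes in 2-cell embryos with KDM5B. H19 and Igf2r differed by 0.0233 and 0.0201, and Meg3 by -0.113. Of 33 paternally expressed genes 19 were later, with a median difference of -0.0243 (0.0049 and -0.0915 in the runs). The tables do not separate the parental alleles.

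Among gene clusters, the type I interferon genes, which encode antiviral cytokines, had the lowest median. Of 17 genes, 16 were later in 2-cell embryos and 8 by at least 0.2 (median -0.181, and -0.197 and -0.236 in the runs), but they span only 8 distinct bins on chromosome 4. Ifna16 had RT 0.336 in 2-cell embryos and 0.541 in zygotes, and 2-cell embryos with KDM5B (0.516) and IVF zygotes (0.489) lay between them. Ifnk, which lies apart from the cluster, was the only member that was earlier (0.118). Keratin genes were later in 48 of 49 cases (median -0.0541) and histone genes in 63 of 68 (median -0.0570), although for histone genes the runs were opposite, at 0.0226 and -0.194. With hours left out in turn, the keratin median ran from -0.0950 (without 2-cell cells of 35 h) to -0.0293 (without zygotes of 24 h) and the histone median from -0.0879 to -0.0187 (the same hours). Prolactin family genes of the placenta and pituitary had the highest median, 0.0652, with 8 of 23 genes earlier by at least 0.2, in 19 distinct bins of chromosome 13 and again with opposite runs (0.123 and -0.0773). That median was 0.0293 without the 2-cell cells of 40 h and 0.120 without the zygotes of 20 h. Prl3a1 had RT 0.564 in 2-cell embryos and 0.324 in zygotes.

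Families of sensory receptors were late in both stages. Median RT of the 1127 olfactory receptor genes was 0.260 at the 2-cell stage, against 0.210 in zygotes, with a median difference of 0.0112 and with 12 genes earlier and 4 later by at least 0.2, and 226 vomeronasal receptor genes had 0.203 and 0.181 (median difference 0.0204). The runs were opposite for both families, at -0.0120 and 0.0882 for olfactory and -0.0111 and 0.110 for vomeronasal receptors, and the olfactory median was -0.0038 without the zygotes of 26 h. Olfr955 had RT 0.344 in 2-cell embryos and 0.127 in zygotes, and was replicated in 21 of 63 2-cell cells (33.3%, 21.95 to 46.3%) and in 8 of 66 zygotes (12.1%, 5.38 to 22.5%). Bitter taste receptors were later in 30 of 35 cases by small steps (median -0.0270, RT 0.0667 in 2-cell embryos and 0.0666 in zygotes), but their median difference was 0.0188 without the cells that stood apart and -0.0055 without the zygotes of 20 h. The larger steps were those of 4 genes that differed by at least 0.2, among them Tas2r118 on chromosome 6, with RT 0.290 in 2-cell embryos and 0.650 in zygotes and a difference of -0.360 that was alike in the runs (-0.367 and -0.348).

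Broadly expressed families stayed close to the median of all genes. Median differences were -0.0135 for 79 cytosolic ribosomal protein genes, -0.0078 for 78 mitochondrial ones, -0.0157 for 38 proteasome genes, -0.0055 for 34 genes of respiratory complex I and 0.0205 for 30 ribosome biogenesis genes. Single members stood out, such as Rps24, with RT 0.344 in 2-cell embryos and 0.613 in zygotes (difference -0.269, and -0.250 and -0.333 in the runs), and Mrps35, in the Itpr2 window, with 0.410 and 0.718. Of 349 zinc finger genes named Zfp, 171 were earlier and 178 later. Zfp263 had the lowest value, with RT 0.245 in 2-cell embryos and 0.578 in zygotes, and was replicated in 13 of 63 2-cell cells (20.6%, 11.5 to 32.7%) and in 41 of 66 zygotes (62.1%, 49.3 to 73.8%). Its RT was 0.633 in IVF zygotes and 0.497 in parthenotes, but 0.646 in 2-cell embryos with KDM5B, 0.565 with DRB and 0.0641 with alpha-amanitin. Zfp503 had the highest, at 0.8001 in 2-cell embryos and 0.585 in zygotes. In 39 Hox genes the median difference was -0.0444, with no gene at 0.2 and with 0.0083 and -0.0378 in the runs.

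Single cells of either stage were only weakly nearer to their own stage. The states of a cell were correlated over bins with the mean state of the other cells of its own stage, and with that of the cells of the other stage. These means were taken over all cells used, including those that stood apart, and not over intervals of score. The correlation was higher with the own stage in 39 of 63 2-cell cells and in 40 of 66 zygotes, with a median gap of 0.0165 and 0.0187. Among cells with scores of 40 to 60, those that stood apart left out, states changed along the chromosome at a median of 54.5 places per 100 Mb in 28 2-cell cells and 56.1 in 18 zygotes. The median replicated segment was 1.2 and 1.3 Mb long. The texture of replication in mid S phase was thus inside the spread of cells, which ran from 44.63 to 69.03 places per 100 Mb in 2-cell cells and from 38.5 to 72.1 in zygotes.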

How the data were processed

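Single-cell Repli-seq had been made from genomic DNA of single cells. Per the labels and the methods, the authors aligned reads to mm10 (GRCm38) with Bowtie2 2.3.5, kept those of mapping quality 20 or more with SAMtools 1.9 and counted them in 50 kb bins with bedtools 2.29.0. The authors scaled the counts per cell, divided each bin by its mean over the stage, masked extremes, smoothed with a running median over 15 bins, segmented each cell with the copynumber package and assigned 2 states with mixtools. The deposited values are these states, another kind of value than counts (1, replicated, 0, not replicated, or missing), for chromosomes 1 to 19. The division by the stage mean removes any gain or loss that every cell of a stage carries, and depth per cell was not analysed here. Columns that match no labelled sample numbered 0.

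RT was the share of cells with a bin replicated in each of 16 intervals of replication score (35 points wide, 4.33 points apart), averaged over intervals, and was computed alike for all groups. Windows of 2 Mb did not overlap and needed at least 20 bins. The computation was tested on simulated cells. Genes were those of GENCODE M21 for GRCm38, GC content came from the same assembly, and Python 3.11.15 with NumPy 2.4.6, pandas 2.3.3 and SciPy 1.17.1 was used. The windows named were the 8 highest and 8 lowest in the difference, with up to 3 genes of longest overlap. The 3 highest and 3 lowest chromosomes were named, and of each list the highest and lowest member and up to 4 well known ones, which were picked with values seen. Of 3164 listed genes 2954 had a value. Members and lists were chosen with earlier results of these data known. Alternatives were the passed cells of the methods, the raw share of cells, scores of 20 to 80, either run of numbers, a difference of 0.3, bins called in 80% of cells, shifted windows and leaving out each hour.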

Additional observations from a re-analysis of the deposited data

How the results depend on the processing

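The 16 named windows kept their sign with passed cells, the raw share, scores of 20 to 80, either run of numbers, bins called in 80% of cells, each hour left out and the cells that stood apart left out (they have no value for moved windows or at a difference of 0.3), which their choice on all cells fixes in part. Bins at least 0.2 earlier in 2-cell embryos (774) numbered 1239 with the cells that passed the quality control of the methods, 366 by the raw share of cells, 4371 among numbers 49 to 80, 60 at a difference of 0.3 and 1184 without the cells that stood apart. They numbered 538 without the zygotes of 24 h, 1241 without those of 20 h and 1278 without the 2-cell cells of 35 h, the range over hours left out. Bins later (1232) numbered 2274 with passed cells, 2778 by the raw share, 1955 among numbers 1 to 48, 5296 among numbers 49 to 80, 83 at 0.3 and 1932 without the cells that stood apart (1169 to 1557 over hours left out). Windows earlier (3) numbered 1 by the raw share, 44 among numbers 49 to 80, 0 at 0.3 and 6 without the cells that stood apart (1 to 7, the lowest without zygotes of 24 h and the highest without 2-cell cells of 35 h). Windows later (7) numbered 12 with passed cells, 23 by the raw share, 11 among numbers 1 to 48, 66 among numbers 49 to 80, 0 at 0.3, 4 when moved by 1 Mb and 12 without the cells that stood apart (5 to 10). The raw share leaves in the higher scores of zygotes. Bins late in 2-cell embryos and early in zygotes (5665) numbered 8535 by the raw share and 9294 among numbers 49 to 80 (5510 to 6227 over hours), and the reverse (3801) 1942 and 6586 (3646 to 4351). Spearman's R over bins (0.753) was 0.744 with passed cells, 0.763 by the raw share, 0.743 for scores of 20 to 80, 0.429 among numbers 49 to 80 and 0.739 without the cells that stood apart (0.723 to 0.752). The difference in the SD of RT (-0.0113) was -0.0143 with passed cells, -0.0138 by the raw share, -0.0084 for scores of 20 to 80, 0.0032 among numbers 1 to 48, where it turned, -0.0235 among numbers 49 to 80 and -0.0182 without the cells that stood apart (-0.0182 to -0.0024, the highest without 2-cell cells of 35 h). The difference in variability score (0.0249) was 0.0334, 0.0456, 0.0213, 0.0011, 0.0414 and 0.0388 under the same 6 settings (0.0102 to 0.0367). The cause of these shifts was not tested. Of 19 chromosomes, 11 kept their sign with passed cells, 12 by the raw share, 15 among numbers 1 to 48, 13 among numbers 49 to 80 and 12 without the cells that stood apart, and of 35 gene lists 28, 27, 23, 22 and 31 did. No paired analysis was possible because the cell numbers in the titles do not tie a 2-cell cell to a zygote and no test was made. With 19 to 66 cells a group, the share of cells replicated in a bin is known only to within the intervals given, and small differences between bins were not detectable.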

Other observations

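5 deposited cells lay outside the scores used. They were 3 2-cell cells, with scores of 90.3, 91.2 and 99.7, and 2 zygotes, with scores of 90.4 and 99.5. In these cells nearly all called bins were replicated, so they hold little about the order of replication. The highest scores within the range were 87.6 in 2-cell cells and 89.4 in zygotes.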
